A study of Mus musculus with 6 samples.

Results

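F-box proteins are the exchangeable adaptors of cullin-RING ubiquitin ligases, and the genes described here are those whose symbols begin with Fbxl, Fbxo or Fbxw in mouse soleus muscle. Members were the features of the deposited array table annotated with exactly 1 symbol of the form Fbxl, Fbxo or Fbxw followed by a number, with the muscle atrophy gene Fbxo32 and its relative Fbxo30 left out. This gave 76 genes, each with 1 feature, of 30145 gene symbols named on single-symbol features. They were 17 Fbxl, 35 Fbxo and 24 Fbxw genes. The rule used names only and no measured value.

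Each array held RNA of 1 male mouse aged 39 to 41 weeks, whose soleus muscles were taken from both legs. Values are given below in the order mouse 1 to 3 of each group. The 3 Control mice were littermates labelled wild type, and whether they carried Cre or floxed alleles was not stated. The 3 cKO mice had Mbtps1, which encodes site-1 protease, deleted by a Cre recombinase under Dmp1 control. Dmp1 is best known as a gene of osteocytes, so the label names a deletion in Dmp1-expressing cells and not in every cell of the muscle. Mouse numbers fell in a low range (Control 1, Control 2 and cKO 1) and a high range (Control 3, cKO 2 and cKO 3), and the labels did not say what a range marks.

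In an SCF ligase, Skp1 links the F-box protein to Cul1, and the RING protein bound to Cul1 brings the ubiquitin-charged E2 enzyme to the substrate that the F-box protein holds. The letter after Fbx names the part that binds substrates: leucine-rich repeats (l), WD40 repeats (w) or another or no known domain (o). In muscle the family is best known for Fbxo32 (atrogin-1), which is induced in atrophy, and for Fbxo40, which targets the insulin receptor substrate Irs1.

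Values were read as log2 signals, and a feature was tested when it lay above the median of its own array on at least 3 of the 6 arrays. Of the 76 members, 49 were tested (13 Fbxl, 28 Fbxo and 8 Fbxw), and 46 of these lay above the median on all 6 arrays. Of the 27 others, 26 were above the median on 0 arrays and Fbxo5, an inhibitor of the anaphase-promoting complex, on 2. Slow fibre markers of soleus were present, with all 8 tested, and the slow myosin gene Myh7 lay between 19.20 and 19.38 on the 6 arrays. Of 6 osteocyte markers 1 (Bglap) was tested, and Dmp1 itself lay at 3.76 to 4.31, under the filter. Mbtps1 read 7.39, 7.05 and 7.24 in the Controls, and 7.77, 7.44 and 7.11 in the cKO mice (difference 0.21, SE 0.21). This does not check the labels, because where the feature lies in the gene, and which exons were deleted, was not stated. The cKO 1 array stood apart, with a median signal of 4.37 against 4.0045 to 4.13 on the other 5 arrays.

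No F-box gene passed an adjusted p of 0.05 (limma, Benjamini-Hochberg over 33334 features; every tested member had an adjusted p of 0.999). None of the 33334 features tested did either (0.0%), while without Control 3 14 features did, no F-box gene among them. At an unadjusted p under 0.05, 5 of the 49 tested members differed between cKO and Control: Fbxl2, Fbxw8, Fbxl12, Fbxw5 and Fbxw11, each with the higher mean in cKO soleus. The 5 are 10.2% of the tested members, beside 1501 of all features tested (4.5%) and 982 of the 18636 tested features with 1 gene symbol (5.27%). The count was 2 after quantile normalization (Fbxl2 and Fbxl12) or median centring (Fbxl2 and Fbxw11), beside 4.54% and 3.98% of all features. It was 2 without Control 2, cKO 2 or cKO 3, and 3 without Control 1, beside 2.89% to 4.22% of all features. In 9 members (18.4%) the groups did not overlap, again all higher in cKO, beside 11.0% of all features in either direction, 8.95% in the higher and 2.05% in the lower direction, and 14.0% of features with 1 symbol. In bulk muscle, fewer cells of a type and less RNA per cell cannot be told apart.

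The smallest unadjusted p of the family belonged to Fbxl2, whose protein carries a lipid (geranylgeranyl) anchor and targets the p85 regulatory subunit of phosphoinositide 3-kinase among others. Fbxl2 read 5.20, 4.90 and 5.41 in the Controls, and 5.998, 5.57 and 5.89 in the cKO mice. All 3 cKO mice lay above all 3 Controls, with a gap of 0.16 between the highest Control and the lowest cKO mouse. The difference was 0.65 (SE 0.19, 95% interval 0.20 to 1.10; 1.57-fold; limma unadjusted p = 0.0114, adjusted p = 0.999 and 0.309 to 0.9999 over the alternatives). By mouse number it came to 0.95 in the low range and 0.32 in the high range. Fbxl2 alone of these 5 kept an unadjusted p under 0.05 in all 18 alternatives, at 0.00716 to 0.0386. Fbxl20, its closest relative in the family, read 7.52, 7.42 and 8.13 in Control against 8.41, 7.69 and 7.88 in cKO, groups that overlapped (difference 0.30, SE 0.28). Within mouse numbers the Fbxl20 difference was 0.94 in the low range and -0.35 in the high range. The 250 bases upstream of the Fbxl2 start (RefSeq, GRCm38.p6, chr9:114026752-114027001, minus strand) are shown because they hold an E-box, CACGTG, the letters bound by clock factors of the CLOCK type, in capitals 77 bases before the start.
Fbxl2: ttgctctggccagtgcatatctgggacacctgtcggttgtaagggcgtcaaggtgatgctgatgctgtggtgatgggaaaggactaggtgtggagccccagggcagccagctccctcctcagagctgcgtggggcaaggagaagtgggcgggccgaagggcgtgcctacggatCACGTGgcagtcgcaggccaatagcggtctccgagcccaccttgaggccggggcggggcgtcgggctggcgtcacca

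Fbxl12, which targets inhibitors of cyclin-dependent kinases and calmodulin-dependent kinase I, read 4.74, 4.57 and 4.69 in the Controls, and 5.05, 4.95 and 4.98 in the cKO mice. All cKO mice lay above all Controls by at least 0.22, with an SD of 0.05 among the cKO mice. The difference was 0.33 (SE 0.11, interval 0.06 to 0.60; unadjusted p = 0.0251), and it was 0.40 in the low and 0.27 in the high mouse numbers. Leaving out Control 2 gave an unadjusted p of 0.0891, Control 3 0.0539, cKO 2 0.0542 and cKO 3 0.0615. Median centring gave an unadjusted p of 0.0580 and quantile normalization 0.0486. In all, 10 of the 13 tested leucine-rich repeat members were higher and 3 lower by mean (5 and 8 after quantile normalization). They included Fbxl5, the iron-sensing adaptor that targets the iron regulatory protein Ireb2 (0.03, SE 0.21), and Fbxl16, a member that binds Cul1 poorly. Fbxl16 read 4.74, 4.65 and 4.71 in Control against 4.97, 4.77 and 4.75 in cKO, groups separated by 0.01 (difference 0.13, SE 0.12). Fbxl17, which removes faulty BTB-domain dimers, was lower by mean (-0.15, SE 0.21), as was Fbxl19, a binder of CpG islands (-0.08, SE 0.12).

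Among the WD40 members, Fbxw5 had the largest difference. Fbxw5 works with both Cul1 and Cul4 ligases and targets the mTORC1 inhibitor Tsc2 and the actin regulator Eps8. It read 11.22, 11.11 and 12.37 in the Controls, and 12.16, 13.04 and 13.13 in the cKO mice. Control 3 stood well above the other 2 Controls and slightly above cKO 1, so the groups overlapped, and the range over the 6 arrays, 2.02, was the widest of the 49 tested members. The difference was 1.21 (SE 0.43, interval 0.19 to 2.23; 2.31-fold; unadjusted p = 0.0269), with 0.99 in the low and 0.71 in the high mouse numbers. Leaving out Control 1 gave an unadjusted p of 0.0826, Control 2 0.0784, cKO 2 0.0835, cKO 3 0.0856, and cKO 1 0.0171, where the difference was 1.52. Median centring gave an unadjusted p of 0.0530 and quantile normalization 0.0506. The 250 bases upstream of the Fbxw5 start (RefSeq, GRCm38.p6, chr2:25500500-25500749, plus strand) hold the E-box CAGCTG, the letters that myogenic factors of the MyoD family bind, in capitals 150 bases before the start.
Fbxw5: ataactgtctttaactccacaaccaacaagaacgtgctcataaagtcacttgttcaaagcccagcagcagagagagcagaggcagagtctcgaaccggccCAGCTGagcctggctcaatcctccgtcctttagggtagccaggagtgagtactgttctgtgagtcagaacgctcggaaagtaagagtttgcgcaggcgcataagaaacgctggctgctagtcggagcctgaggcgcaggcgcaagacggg

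Fbxw8, which joins Cul7 in the ligase that targets Irs1, read 7.71, 7.63 and 7.81 in the Controls, and 8.06, 8.38 and 8.35 in the cKO mice. Every cKO mouse lay above every Control by at least 0.24. The difference was 0.55 (SE 0.17, interval 0.14 to 0.95; 1.46-fold; unadjusted p = 0.0153), with 0.39 in the low and 0.55 in the high mouse numbers. Without cKO 1 the difference was 0.65 (unadjusted p = 0.00617). The unadjusted p was 0.0616 without cKO 2 and 0.0564 without cKO 3. For Fbxw8 it was 0.0687 after median centring, 0.0624 after quantile normalization and 0.109 after quantile normalization with the number range block. Its partner Cul7 had groups that did not overlap either, with 5.78, 5.73 and 5.91 in Control against 6.11, 6.01 and 6.13 in cKO (difference 0.27, SE 0.13, unadjusted p = 0.0690).

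Fbxw11 (beta-TrCP2) recognises phosphorylated degrons in, among others, the clock repressors Per1 and Per2, beta-catenin and the inhibitor of NF-kappa-B. It read 8.42, 8.38 and 8.45 in the Controls, and 9.10, 8.80 and 8.77 in the cKO mice. The Controls had an SD of 0.04, and the gap to the lowest cKO mouse, 0.32, was the widest of the 9 members that did not overlap. The difference was 0.47 (SE 0.17, interval 0.07 to 0.88; 1.39-fold; unadjusted p = 0.0286), with 0.70 in the low and 0.34 in the high mouse numbers. With Control 1 left out the unadjusted p was 0.0687, with Control 2 0.0711, with Control 3 0.0504, with cKO 2 0.0563 and with cKO 1 0.0475. For Fbxw11 it was 0.0583 after quantile normalization and 0.0265 after median centring. Its near paralog Btrc (beta-TrCP1), which the naming rule does not cover, had overlapping groups (0.18, SE 0.17). It was 1 of 4 tested F-box genes with other names, which were all higher by mean (1 of 4 after quantile normalization) with 0 at an unadjusted p under 0.05. Fbxl21, which acts on cryptochromes, lay at 3.74 to 3.94 and was not tested. Per1 and Per2, substrates of Fbxw11, had groups that did not overlap, at 5.96, 7.15 and 5.86 against 7.61, 7.33 and 8.17 for Per1 (difference 1.38, SE 0.40) and 5.12, 5.34 and 5.05 against 6.15, 6.36 and 6.70 for Per2 (1.23, SE 0.18), at an adjusted p of 0.999 each. The genes of beta-catenin (Ctnnb1) and the inhibitor of NF-kappa-B (Nfkbia) were not among the 5 tested F-box substrates whose groups did not overlap.

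Of the 8 tested Fbxw genes all had a higher mean in cKO on the values as deposited (median difference 0.10), but after quantile normalization 4 were higher and 4 lower. Fbxw7, which targets cyclin E and Myc, read 8.72, 8.56 and 8.45 in Control against 8.61, 8.35 and 8.89 in cKO, with overlap and a difference of 0.04 (SE 0.20). Fbxw9 (0.14, SE 0.12), Fbxw17 (0.05, SE 0.12), Fbxw2 (0.02, SE 0.15) and Fbxw4 (0.01, SE 0.19) differed little; these 4 are named after their values were seen, to complete the class.

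Members with known roles in striated muscle were considered next: Fbxo40, Fbxl22, Fbxo21, Fbxo25 and Fbxw8. All 5 were higher by mean in cKO, beside 65.8% of all features tested, although Fbxl22 turned lower after quantile normalization. In 3 the groups did not overlap, beside 11.0% of all features, and 1, Fbxw8, had an unadjusted p under 0.05, beside 4.5%. Fbxo40, the muscle-restricted adaptor for Irs1, read 13.58, 13.61 and 13.52 in the Controls, and 14.31, 13.70 and 14.02 in the cKO mice. The Controls lay close together (SD 0.05), while the cKO mice were spread more widely (SD 0.30) and began 0.10 above the highest Control. The difference was 0.44 (SE 0.21, interval -0.07 to 0.96; 1.36-fold; unadjusted p = 0.0797), with 0.71 in the low and 0.34 in the high mouse numbers. Without cKO 1 the difference was 0.29 (unadjusted p = 0.176), and with array weights it was 0.24 (unadjusted p = 0.205). The unadjusted p was 0.0498 without cKO 2, 0.0465 with no trend and 0.0464 with the number range as a block, and 0.109 to 0.176 with each of the other 5 arrays left out. Quantile normalization together with that block gave 0.0907. Fbxo21, a ubiquitin ligase adaptor for Eid1, read 7.54, 7.63 and 7.65 in Control against 7.68, 7.84 and 7.79 in cKO, a full but narrow separation (0.16, SE 0.15). After quantile normalization the Fbxo21 difference was 0.03 (limma unadjusted p = 0.864). Fbxo25, the closest relative of Fbxo32, read 8.52, 9.03 and 8.66 in Control against 9.35, 8.73 and 8.58 in cKO (0.15, SE 0.26), and Fbxl22, a sarcomeric protein that acts on alpha-actinin and filamin C, was 0.03 (SE 0.15) higher. Irs1, the substrate shared by Fbxo40 and Fbxw8, read 9.51, 9.44 and 9.22 in Control against 7.25, 10.30 and 10.63 in cKO, so that cKO 1 lay below and cKO 2 and cKO 3 above all Controls (0.01, SE 0.85). RefSeq (GRCm38.p6) lists 2 starts for Fbxo40; the 250 bases before the outer start (chr16:36990468-36990717, minus strand) hold CAGCTG at 81 and 53 bases before the start, in capitals, and the window of the other start holds it once, at 89.
Fbxo40: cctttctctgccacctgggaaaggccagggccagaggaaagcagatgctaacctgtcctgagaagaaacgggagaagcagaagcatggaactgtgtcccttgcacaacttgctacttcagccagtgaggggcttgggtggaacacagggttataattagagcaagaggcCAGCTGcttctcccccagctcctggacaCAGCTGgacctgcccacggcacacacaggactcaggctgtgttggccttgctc

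Fbxo42, which targets p53, came close to the threshold. It read 7.22, 7.25 and 7.45 in the Controls, and 7.88, 7.64 and 7.56 in the cKO mice, with no overlap (0.39, SE 0.16, unadjusted p = 0.0525). The unadjusted p was 0.0477 without Control 3, 0.0644 to 0.141 with each of the other 5 arrays left out, and 0.115 after quantile normalization (difference 0.25). By mouse number the difference was 0.64 in the low and 0.15 in the high range. Fbxo28, which ubiquitinates Myc, read 8.15, 7.99 and 8.43 in Control against 8.91, 8.49 and 8.44 in cKO, separated by 0.01 only (0.42, SE 0.21, unadjusted p = 0.0872). Its difference was 0.84 in the low and 0.03 in the high mouse numbers, and 0.27 without cKO 1. Of the 28 tested Fbxo genes, 16 were higher and 12 lower by mean (after quantile normalization 10 and 18), and none had an unadjusted p under 0.05.

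No member was lower in cKO at an unadjusted p under 0.05, and no member had a full separation in that direction. Among the 15 lower by mean, Fbxo18 (now named Fbh1), a DNA helicase with an F-box, had the smallest unadjusted p, 0.201. It read 7.60, 8.03 and 7.51 in Control against 7.53, 7.37 and 7.44 in cKO, where cKO 1 lay just above Control 3 (-0.27, SE 0.19). Without Control 2 the difference was -0.11 (unadjusted p = 0.555). Fbxo11, which targets the repressor Bcl6, had the largest negative difference, -0.33 (SE 0.25, unadjusted p = 0.235). It read 12.17, 12.13 and 12.73 in Control against 12.31, 11.92 and 11.79 in cKO, and its sign differed between the mouse numbers, 0.16 in the low and -0.87 in the high range. Without Control 3 the difference was -0.14 (unadjusted p = 0.584). Fbxo45, a neuronal adaptor that works with Mycbp2, was at -0.12 (SE 0.20), Fbxo47 at -0.13 (SE 0.16), the glycoprotein-binding Fbxo27 at -0.08 (SE 0.15) and Fbxo10, which targets Bcl2, at -0.06 (SE 0.12).

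**Figure D1:**
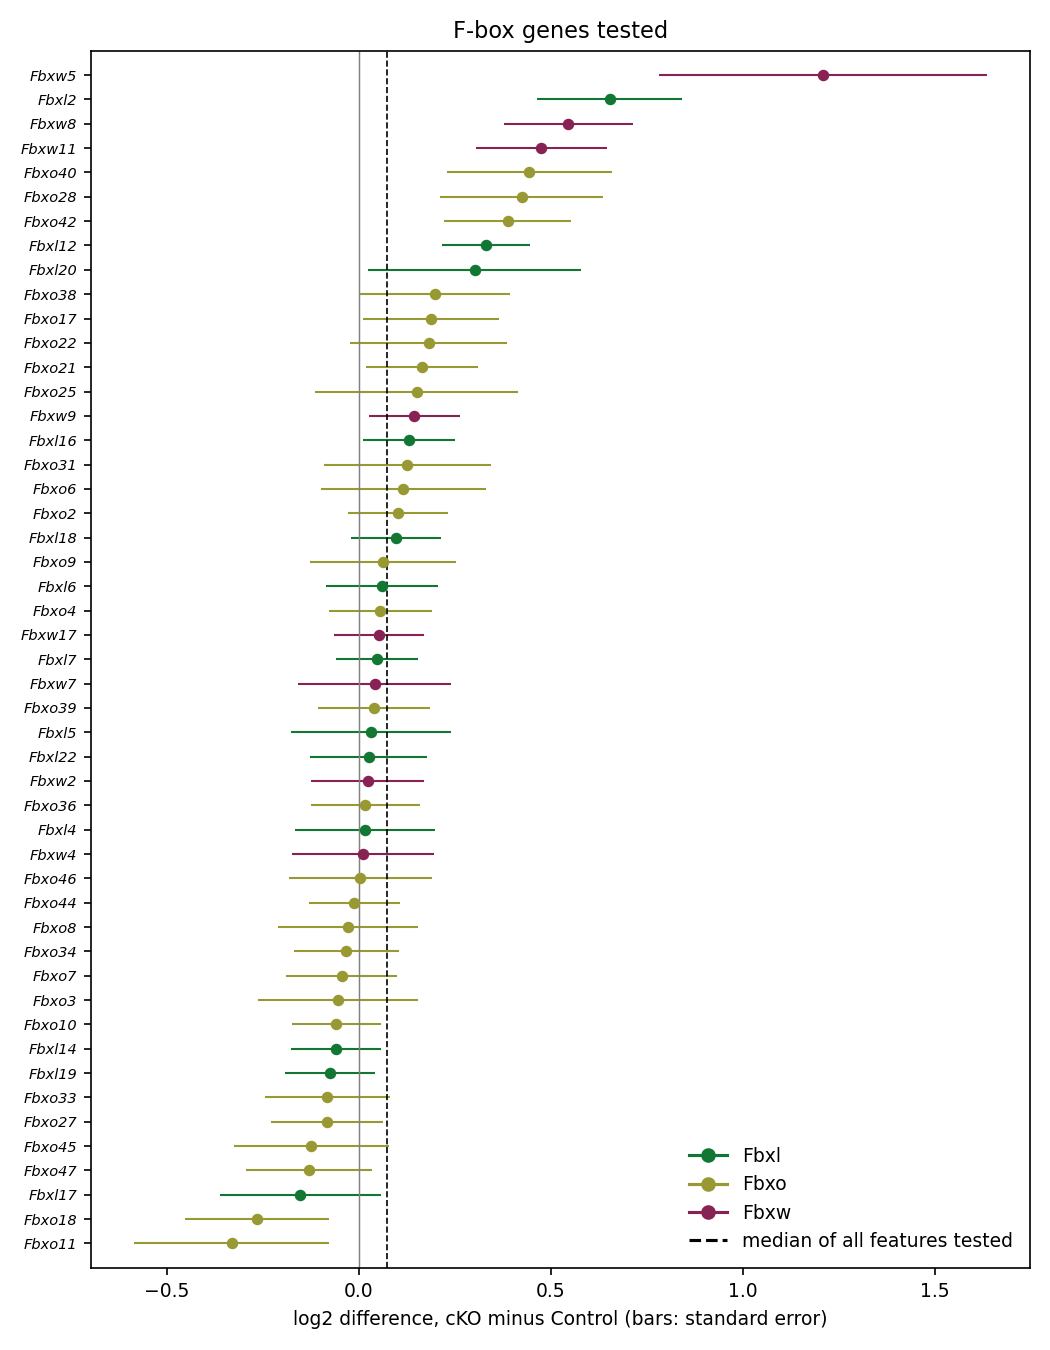
Log2 difference, cKO minus Control, of the 49 tested F-box genes with its standard error, coloured by class; the dashed line is the median of all 33334 features tested, 0.07. Fbxw5 at 1.21 and Fbxl2 at 0.65 lie farthest to the right, and Fbxo11 at -0.33 farthest to the left.

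Most of the family differed little. The median size of the difference was 0.0961, and 38 of the 49 tested members differed by less than 0.2 log2 units. The 95% interval lay within 1 log2 unit either way for 47 of 49, the exceptions being Fbxl2 and Fbxw5. Of the mitochondria-linked members, Fbxl4, which limits mitophagy receptors, was at 0.02 (SE 0.18) and Fbxo7, which acts with Parkin, at -0.05 (SE 0.15). Of the 5 glycoprotein-binding members (Fbxo2, Fbxo6, Fbxo17, Fbxo27 and Fbxo44), 3 were higher and 2 lower by mean, with 0 at an unadjusted p under 0.05; after quantile normalization 2 were higher and 3 lower. Of the cell cycle members, Fbxl12, Fbxo4, Fbxo31 and Fbxw7 were tested. Of these, 1, the Fbxl12 described above, was at an unadjusted p under 0.05, beside 4.5% of all features tested. Fbxo31, which targets cyclin D1, was at 0.13 (SE 0.22), and Fbxo9, which targets regulators of mTOR kinases, at 0.06 (SE 0.19).

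The 22 tested members not singled out by the naming rule had differences from -0.08 to 0.20, 16 positive and 6 negative, with overlapping groups throughout and no unadjusted p under 0.267. They include Fbxo3, Fbxo22 and Fbxo38, and the glycoprotein-binding members other than Fbxo27. Of these 22, 17 were highest on cKO 1. Outside a run of Fbxw genes on chromosome 9, 12 members were not tested, with values of 3.22 to 4.29 on the 6 arrays. In 2 of the 12, named after their values were seen, the groups did not overlap: Fbxl8 read 3.56, 3.54 and 3.63 in Control against 3.66, 3.71 and 3.68 in cKO, and Fbxl15 read 3.44, 3.37 and 3.37 against 3.48, 3.50 and 3.51. Both lay under the median of every array. They were the only 2 of all 27 untested members without overlap, and the share over all untested features was not counted.

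By sign, 34 of the 49 tested members (69.4%) were higher in cKO, beside 65.8% of all features tested, and the median difference was 0.05 beside 0.07 over all features. Quantile normalization turned the balance, to 19 higher and 30 lower members beside 16376 of 33334 features higher, with a median of -0.03 for the members and -0.0038 for all features. Without cKO 1, 21 of 49 members were higher (median -0.04). On that array 34 of the 49 tested members had their highest value (69.4%), beside 46.4% of all features tested, and the tested members lay a median of 0.20 above their 6-array mean there, beside 0.19 for all features. On the other 5 arrays the members' median deviation lay between -0.06 and -0.01. Of the 5 members at an unadjusted p under 0.05, all 5 stayed there without cKO 1, where 6.18% of all features had such a p.

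**Figure D2:**
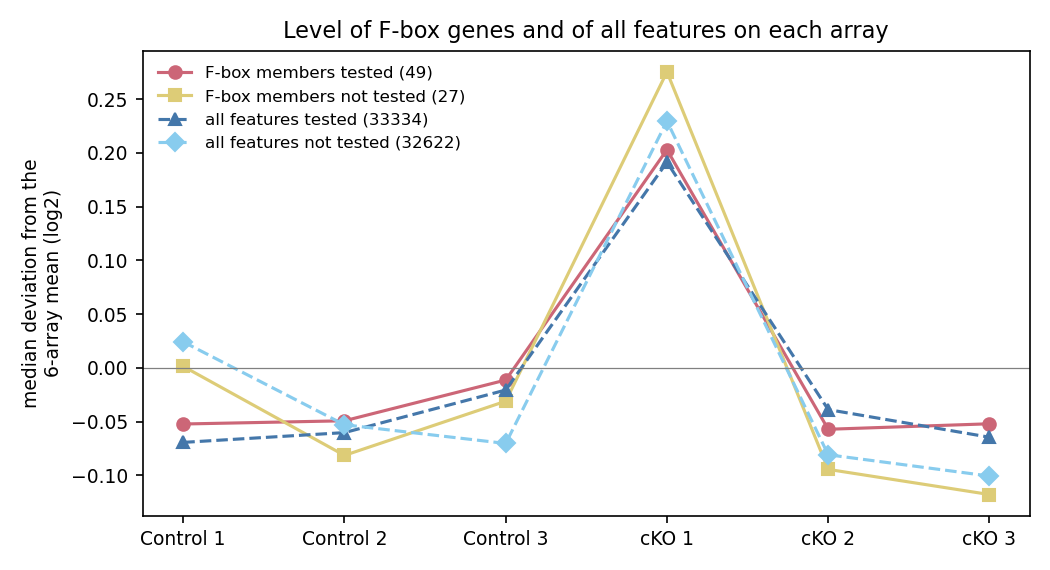
Median deviation (log2) from each feature's mean over the 6 arrays, for the 49 tested and 27 untested F-box genes (solid) and for all tested and untested features (dashed). All 4 lines peak on cKO 1, at 0.20 and 0.28 for the F-box genes and 0.19 and 0.23 for all features.

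The 2 ranges of mouse numbers gave different pictures. With low numbers, where cKO 1 was set against Control 1 and Control 2, 45 of 49 members were higher in cKO (median 0.25). With high numbers, where cKO 2 and cKO 3 were set against Control 3, 19 of 49 were (median -0.06). Over all features the medians were 0.26 and -0.04. The sign was the same in both ranges for 19 of the 49 members (17 higher, 2 lower), beside 15300 of the 33334 features. The 17 include the 9 members whose groups did not overlap, for which a positive difference within both ranges is fixed by the separation, and Fbxw5. These within-range values are given with no test, since each range holds a single mouse of 1 group. With the range as a block in limma, 6 members had an unadjusted p under 0.05, the 5 above and Fbxo40, beside 6.01% of all features. With quantile normalization and the block 3 did (Fbxl2, Fbxw5 and Fbxw11), beside 6.59% of all features.

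**Figure D3:**
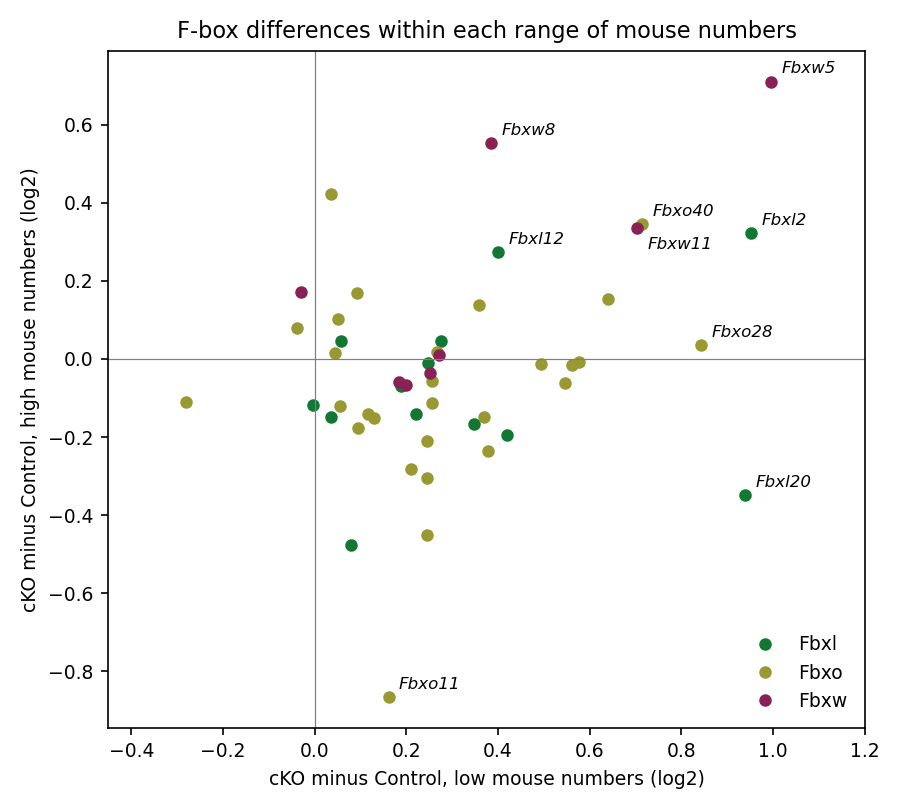
Log2 difference, cKO minus Control, of the 49 tested F-box genes within the low mouse numbers (cKO 1 against the mean of 2 Controls, horizontal) and the high mouse numbers (mean of 2 cKO against Control 3, vertical), coloured by class. Most points lie right of 0 and below 0, while Fbxw5, Fbxl2, Fbxw8, Fbxw11, Fbxl12 and Fbxo40 lie above 0 on both axes.

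Among the untested members, 15 Fbxw genes lie side by side on chromosome 9, a run of rodent genes from Fbxw21 to Fbxw27. None passed the filter, and their values lay between 2.95 and 4.15 on all arrays. On 14 of the 15 the highest array was cKO 1, and Fbxw28 was highest on Control 1. Between groups their median difference was 0.03 with 12 of 15 positive, and without cKO 1 it was -0.10 with 2 of 15 positive. Of the 12 with a RefSeq start, the 250 upstream bases matched one another at a median of 78.6% over 66 pairs (41.6% to 96.4%), counting 1 minus the edit distance over the length. Over the 1081 pairs of the other 47 members the median was 45.2% and the highest 53.6%. Fbxw23 stood apart within the run, at 41.6% to 48.0% with the 11 others, which matched one another at 54.8% or more. Transcripts and probes were not compared, so whether features of the run share signal was not tested. The closest pair, Fbxw14 (GRCm38.p6, chr9:109287677-109287926, minus strand) and Fbxw28 (chr9:109339660-109339909, minus strand), is shown with CAGCTG, and GTGGAGTGA, the opposite strand of the sterol element TCACNCCAC, in capitals.
Fbxw14: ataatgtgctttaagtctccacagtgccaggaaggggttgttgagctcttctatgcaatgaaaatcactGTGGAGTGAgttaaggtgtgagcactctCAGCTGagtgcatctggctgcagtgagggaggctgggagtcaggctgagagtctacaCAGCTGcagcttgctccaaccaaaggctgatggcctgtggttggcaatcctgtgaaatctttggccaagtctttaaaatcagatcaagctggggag
Fbxw28: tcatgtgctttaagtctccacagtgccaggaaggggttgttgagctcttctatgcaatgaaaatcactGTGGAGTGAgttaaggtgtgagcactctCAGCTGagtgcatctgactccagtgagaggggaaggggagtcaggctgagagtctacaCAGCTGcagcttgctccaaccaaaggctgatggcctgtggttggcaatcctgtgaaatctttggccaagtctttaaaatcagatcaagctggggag

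In these windows CAGCTG lies 153 and 96 bases before the start of Fbxw14 and 154 and 96 before that of Fbxw28. Counting 1 start a gene, it was in 11 of the 12 genes of the run and 9 of the other 47 matched members, and TCACNCCAC was in 7 of 12 and 2 of 47. In all, 59 of the 76 members had a RefSeq start. Each motif was sought on both strands of the 250 bases upstream, in all 27025 genes of the table. Counting every listed start, CAGCTG was in 21 of the 59 members (14.7% of all genes), TCACNCCAC, the element of the sterol factors that site-1 protease cleaves, in 9 (1.22%), and CACGTG in 2, Fbxl2 and Fbxo10 (6.86%). The D-box TTATGTAA (0.977% of all genes), the forkhead element GTAAACA (3.54%) and the endoplasmic reticulum stress element of ATF6, CCAAT and CCACG with 9 bases between (0.13%), were in none of the 59. Most CAGCTG and TCACNCCAC matches among members come from the chromosome 9 run, whose windows share sequence. A match describes letters in the window and is not evidence of binding.

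Partners of the F-box proteins were read from lists of the SCF machinery. The lists also held the 4 tested F-box genes with other names, all higher by mean. Of these 36 tested genes together, 25 were higher and 11 lower by mean (17 and 19 after quantile normalization), with a median difference of 0.07. At an unadjusted p under 0.05 (limma) there were 0, beside 4.5% of all features tested, and 0 at an adjusted p under 0.05. The unadjusted count was 5 with array weights, where 12.8% of all features were called. It was 3 with no trend (5.0% of all features called) and 1 without Control 2 (4.22%). It was 2 without Control 3 (9.43%) or cKO 1 (6.18%). In the core, Skp1a, which joins the F-box to the cullin, was at -0.01 (SE 0.15), the scaffold Cul1 at 0.11 (SE 0.22) and the RING protein Rnf7 at -0.21 (SE 0.23). Cand2, a muscle-rich factor that exchanges F-box proteins on cullins, read 11.29, 11.61 and 11.94 in Control against 11.92, 12.27 and 12.25 in cKO (0.53, SE 0.24, unadjusted p = 0.0624), with Control 3 just above cKO 1. Of the COP9 signalosome, which removes Nedd8 from cullins, 7 of 9 subunits were higher and 2 lower, and Gps1 (0.42, SE 0.18) and Cops7a (0.38, SE 0.19) had groups that did not overlap. Of the 9 genes of Nedd8 conjugation 5 were higher and 4 lower, with Nedd8 itself at 0.20 (SE 0.29) and Uba3 of its activating enzyme at 0.25 (SE 0.22). The E2 enzyme Ube2r2, a partner of SCF ligases, was lower without overlap (-0.26, SE 0.19), and Ube2d1 was at 0.35 (SE 0.30). Among all 36 genes, Cul7 included, the groups did not overlap in 3 higher and 1 lower. That was 11.1%, beside 11.0% of all features tested.

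Both genes left out of the family were lower by mean, as deposited and after quantile normalization. Fbxo32 read 14.92, 15.17 and 14.72 in the Controls, and 14.43, 14.51 and 14.05 in the cKO mice, with every cKO mouse below every Control (-0.61, SE 0.22, unadjusted p = 0.0292, adjusted p = 0.999). Fbxo30 overlapped (-0.23, SE 0.22). Of 12 tested F-box substrates, 9 were higher (7 after quantile normalization), 5 of them at an unadjusted p under 0.05 and with full separation (Per1, Per2, Cry2, Myc and Flnc). Over all features tested 65.8% were higher, 4.5% had such a p and 11.0% had groups that did not overlap. The substrate values are of transcripts, and F-box proteins act on the proteins.

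Some markers of other cells differed with the groups, though none passed an adjusted p of 0.05. Over all features tested, 65.8% were higher by mean in cKO and 4.5% had an unadjusted p under 0.05. Of 10 tested tendon markers all 10 were higher by mean in cKO, 6 at an unadjusted p under 0.05, with Scx turning lower after quantile normalization; the list's mean signal was 5.65 to 6.41 in Control and 6.93 to 7.17 in cKO, Angptl7 (2.20, SE 0.35) and Chad (1.97, SE 0.36) led it, and the defining factor Mkx lay at 3.54 to 3.71, under the filter. Of 6 adipocyte markers 5 were higher and 1 lower by mean, 3 of them at an unadjusted p under 0.05, with means of 6.74 to 6.87 in Control and 6.96 to 7.37 in cKO. Of 10 fast fibre markers 5 were higher and 5 lower by mean (4 and 6 after quantile normalization), with 0 at an unadjusted p under 0.05. The 2 with the smallest p, Actn3 (15.67) and Myh4 (16.88), were highest on cKO 2, against 7.97 to 11.47 and 11.72 to 13.67 on the other arrays. All 8 tested macrophage markers were higher by mean (5.59 to 6.22 in Control, 5.95 to 6.78 in cKO), with 0 at an unadjusted p under 0.05. Of 8 endothelial markers 2 were higher and 6 lower, with 1 under that threshold in each direction, and fibroblast (4 higher, 3 lower) and Schwann cell markers (2 and 2) had 0. The part of these cells in the F-box differences was not tested.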

How the data were processed

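RNA of 6 mice, 3 Control and 3 cKO, was labelled from 100 ng each, per the labels' protocols, and run on Affymetrix whole-transcript arrays. The table deposited by the authors was read as log2 signals, from its range of 1.92 to 19.93; the software, normalization and genome build are not given in the sources used here. Values were present for 65956 of 72688 rows. Names came from the platform annotation, and promoter windows from RefSeq (GRCm38.p6).

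The 33334 features above their own array median on at least 3 arrays entered limma (version 3.58.1, under R 4.3.3), with lmFit and a trended eBayes, two-sided, on group alone. Benjamini-Hochberg adjustment ran over all of them. The fit was tested on simulated data. Exact permutation of 3 against 3 cannot go below p = 0.1 and is not reported. The number of arrays limits the precision. Plots used matplotlib 3.10.9 and Python 3.11.15.

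The members and lists were chosen with earlier results of these data known. Named are a fixed set of members, the 8 smallest unadjusted p in each direction, every tested member without overlap and the 4 widest ranges. The rule also took the 2 smallest p of each list, but not all of those genes are given above. Fbxo5, Irs1, Per1, Myc, Flnc, Dmp1, Myh7, Scx, Mkx, Skp1a, Cul1, Fbxw2, Fbxw4, Fbxw9 and Fbxw17 were named after their values were seen. Alternatives were quantile normalization, median centring, other filters, eBayes without trend or robust, array weights, blocks for number range or replicate number, single-symbol features, averaged features and each array left out. Quantile normalization with the range block was added after seeing the data.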

Additional observations from a re-analysis of the deposited data

How the results depend on the processing

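Of the alternatives run on the 27 named members, 418 values kept their direction and side of an unadjusted p of 0.05, 23 lost that threshold, 9 passed it and 29 changed sign. The count of members under it was 5 as reported, 2 after quantile normalization and 2 after median centring. It was 3 after quantile normalization with a number range block, 4 with the replicate block and 7 with no trend. Array weights, features with 1 symbol, robust settings or the number range block gave 6. The count was 5 with averaged features, 5 of 28 members with the 75th percentile filter and 5 of 76 with no filter. At an unadjusted p of 0.01 it was 0, and with 1 array left out 2 to 5. The share of all features under an unadjusted p of 0.05 moved too. It was 4.5% as reported, 12.8% with array weights, 6.88% with features with 1 symbol and 6.01% with the number range block. It was 5.0% with no trend, 4.55% with robust settings, 4.54% after quantile normalization, 3.98% after median centring and 3.97% with the replicate block. The 75th percentile filter gave 6.96%, no filter 2.68% and averaged features 4.53%. With 1 array left out the share was 2.89% to 9.43% (9.43% without Control 3, 6.18% without cKO 1). Features past an adjusted p of 0.05 were 0 in every alternative except without Control 3, where they were 14 (0 to 14 over the arrays left out). The SCF pathway count, 0 as reported, was 1 with the 75th percentile filter, 5 with array weights, 2 with features with 1 symbol, 3 with no trend, 1 with robust settings and 0 to 2 with 1 array left out. Members without overlap were 11 to 21 (15 without Control 3, 21 without cKO 1), where 3 arrays are set against 2. Fewer arrays separate more easily, and the share over all features was not counted in these settings. These counts therefore cannot be compared with the count over all arrays. The median difference ranged from -0.0426 to 0.118 with 1 array left out.

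Under array weights Fbxl4 (-0.0860), Fbxl5 (-0.0845), Fbxl22 (-0.0245) and Fbxw7 (-0.116) changed sign. Under median centring Fbxl4 (-0.0420), Fbxl5 (-0.0273), Fbxl22 (-0.0329) and Fbxw7 (-0.0173) did, and under quantile normalization Fbxl4 (-0.124), Fbxl5 (-0.0881), Fbxl22 (-0.0377), Fbxo9 (-0.0429) and Fbxw7 (-0.0617). Under quantile normalization with the range block Fbxl4 (-0.0400), Fbxl22 (-0.0601), Fbxo9 (-0.0188) and Fbxw7 (-0.0169) did. With 1 array left out, Fbxl4 ranged from -0.143 (no cKO 1) to 0.115, Fbxl5 from -0.153 (no cKO 1) to 0.167, Fbxl22 from -0.0777 (no Control 2) to 0.118, Fbxo7 from -0.121 to 0.0411 (no cKO 2), Fbxo9 from -0.0471 (no cKO 1) to 0.157, Fbxo25 from -0.0828 (no cKO 1) to 0.305, Fbxo27 from -0.201 to 0.0138 (no cKO 2), Fbxo31 from -0.0347 (no cKO 1) to 0.275 and Fbxw7 from -0.0945 (no cKO 3) to 0.173. The cause was not tested.

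With the replicate number as a block, 4 members were under an unadjusted p of 0.05 (Fbxw11 at 0.0775), 0 features passed the adjusted threshold, 0 SCF genes were counted and the median difference was 0.05. Deviations from the group means of same-numbered arrays correlated at 0.128, -0.204 and 0.205. The 4 Control and cKO pairs of the same mouse-number range correlated at 0.128, 0.334, 0.387 and 0.205, and the 5 pairs across ranges at -0.405 to 0.0836. Deviations of a group's arrays sum to 0, so all these correlations constrain one another. They cannot decide whether the numbers pair the mice, or what a range marks. The 27 members under the filter were not tested, and their values carry no difference with an error.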
